A study of Mus musculus with 6 samples.

Results

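Keratins are the filament proteins of epithelial cells, and the cornified envelope is the cross-linked protein shell that replaces the plasma membrane of a dying squamous cell. The transcripts of both were followed in mouse stomach on 6 one-colour Agilent arrays. Genes were taken by name: Krt followed by a number, every Lce and Sprr gene, and Lor, Ivl, Krtdap, Cnfn and Crct1. The array carried 90 such genes among 31689 genes and unnamed transcripts, and 70 of them had a probe well above background on at least 1 array, as had 20073 in the whole series. The other 20 gave no such signal and are not described further. By type, the 70 were 5 simple keratins (of 5), 15 stratified keratins (of 18), 10 hair and root-sheath keratins (of 23), 6 other keratins (of 6), 18 Lce genes (of 18), 11 Sprr genes (of 15) and 5 other cornified envelope genes (of 5).

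RNA came from the mucosa of the glandular stomach, stripped off the muscle layer, of C57BL/6J mice. The groups were wild type mice of 5, 10 and 50 weeks and A4gnt null mice of 5, 10 and 50 weeks, with 1 sample and 1 array for each genotype and age. Whether a sample was 1 animal or a pool is not given in the sources used here; each is called 1 mouse below. A4gnt encodes the glycosyltransferase that caps gland mucin O-glycans with α1,4-linked N-acetylglucosamine; how the null allele was made is not given in the sources used here. The 3 wild-type arrays lay on 1 slide and were scanned together, and the 3 null arrays lay on another, so slide and genotype cannot be told apart in any comparison of genotypes.

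A level is given throughout as the percent of the 75th percentile of the processed signal on the same array, so that a level of 100 equals that percentile. Levels are set against each other between arrays for 1 gene and not between genes, whose probes differ. Where the levels of a list are summed, the brightest probes carry the sum. The 75th percentile was 252.8 to 402.8 units, and 54.8% to 59.2% of 43020 spots were well above background. A4gnt itself stood at 64.4, 91.1 and 91.2 in wild-type mice of 5, 10 and 50 weeks and gave no signal well above background in null mice, at least 24.3-fold lower. All 10 glandular stomach markers examined, among them Atp4a, Pgc, Muc5ac and Gkn1, were above background on all 6 arrays. Their levels differed between the genotypes as well: Atp4a of parietal cells was 3.77-fold and 3.09-fold lower, and Pgc of chief cells 1.83-fold and 2.40-fold lower, in the null mice of 10 and 50 weeks, while Muc6 of neck and pyloric gland cells was 1.95-fold and 1.91-fold higher. None of the 10 passed the limma threshold, and their part in the keratin results was not tested. The number of arrays limits the precision.

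Simple, one-layered epithelia such as that of the glandular stomach build their filaments from pairs of a type II and a type I keratin, mainly Krt8 with Krt18 or Krt19, with Krt7 and Krt20 in some cell types. Stratified squamous epithelia use Krt5 and Krt14 in the basal layer and other pairs above it: Krt4 and Krt13 in mucosae, Krt1 and Krt10 in cornifying skin, and Krt6, Krt16 and Krt17 in stressed or fast-renewing epithelium. In the outermost cells the transglutaminase substrates involucrin (Ivl), loricrin (Lor), the small proline-rich proteins (Sprr) and the late cornified envelope proteins (Lce) are cross-linked into the envelope. In the mouse this kind of lining covers the forestomach, which borders the glandular stomach.

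The upstream sequences of a few members are shown because the cornified genes, which lie close together on chromosome 3 for the most part, differed in them and also differed in their pattern on the arrays. The sequences are from RefSeq (GRCm38.p6), on the strand of the gene, and end at the base before its start. Capitals mark 2 motifs that were searched for: TGANTCA, the consensus of AP-1 factors, and TATAAA, the core of the TATA box. The loricrin stretch lies at chr3:92083143-92083262 on the minus strand, that of Krtdap at chr7:30787785-30787904 on the plus strand, that of Ivl at chr3:92573736-92573855 on the minus strand, that of Sprr1a at chr3:92485882-92486001 on the minus strand, that of Lce3b at chr3:92932859-92932978 on the plus strand, and that of Krt20 at chr11:99438154-99438273 on the minus strand.
Lor: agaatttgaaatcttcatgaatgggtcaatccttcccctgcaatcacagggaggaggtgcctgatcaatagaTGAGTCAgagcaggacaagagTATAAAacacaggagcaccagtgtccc
Krtdap: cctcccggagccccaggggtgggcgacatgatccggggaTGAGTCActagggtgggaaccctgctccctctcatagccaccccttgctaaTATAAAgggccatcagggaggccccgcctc
Ivl: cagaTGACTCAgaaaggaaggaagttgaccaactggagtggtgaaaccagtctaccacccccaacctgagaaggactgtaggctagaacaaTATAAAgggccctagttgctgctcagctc
Sprr1a: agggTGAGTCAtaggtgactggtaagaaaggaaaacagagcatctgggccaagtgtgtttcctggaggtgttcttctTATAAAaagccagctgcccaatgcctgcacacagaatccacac
Lce3b: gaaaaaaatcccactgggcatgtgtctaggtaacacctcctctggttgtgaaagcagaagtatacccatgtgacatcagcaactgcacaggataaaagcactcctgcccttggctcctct
Krt20: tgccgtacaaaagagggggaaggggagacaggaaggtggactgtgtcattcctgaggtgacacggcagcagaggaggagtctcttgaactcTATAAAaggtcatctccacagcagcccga

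In Lor the AP-1 consensus began 48 bases and the TATA core 27 bases upstream of the start. In Krtdap they began 81 and 30 bases upstream, in Ivl 116 and 29, and in Sprr1a 116 and 43. Both motifs thus stood in genes of opposite pattern, since Lor and Krtdap were high on the older wild-type arrays and Ivl and Sprr1a were highest on the 5-week null array. Over the longer window of 250 bases before to 50 after the start, 52 of the 70 members had an entry. Members were counted by gene, with a match in any window of the gene, and the background by window. The letters TGANTCA, read on both strands, occurred in 6 of 8 Sprr genes, 3 of 4 other cornified genes and 1 of 8 stratified keratins. They occurred in 0 of 17 Lce genes and 0 of 4 simple keratins, against 7.81% of all 32851 windows. TATAAA on the strand of the gene occurred in 7 of 8 Sprr genes, 3 of 4 other cornified genes, 5 of 7 hair keratins and 2 of 4 simple keratins. It occurred in 2 of 4 other keratins, 1 of 8 stratified keratins and 2 of 17 Lce genes, against 8.32% of all windows. The ends of the 2 motifs do not allow them to overlap. A match describes letters in this window and is not a measured binding site.

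Part of the stratified keratins and of the cornified envelope genes were bright on the 10-week and 50-week wild-type arrays and dim on the 5-week wild-type array and on all 3 null arrays, while the simple keratins were above background on all 6. A further 7 of 15 stratified keratins were above background on all 6 arrays too. Of the 70 members, 21 were above background on the 10-week and 50-week wild-type arrays and on no other array, a pattern held by 0.503% of all genes with signal. They were the stratified keratins Krt1, Krt6a, Krt14 and Krt17, the cornified genes Crct1 and Krtdap, 12 Lce genes and 3 Sprr genes (Sprr2i, Sprr2j-ps and Sprr3), with no simple, hair or other keratin among them. Members that passed the filter only through these 2 arrays had to differ from the rest, so the count describes a pattern and supports nothing further. In whole mucosa, fewer cells of a type and less RNA per cell cannot be told apart.

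**Figure D1:**
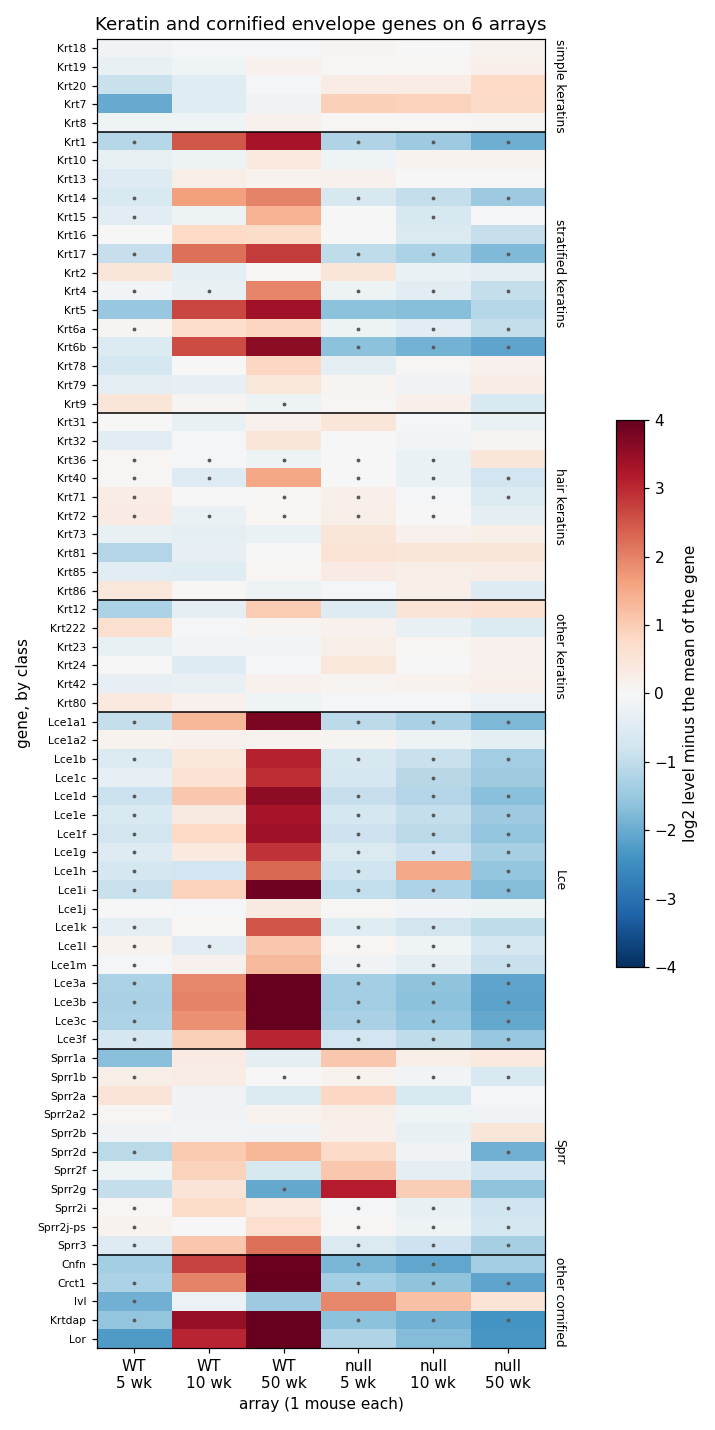
Each row is 1 of the 70 members, grouped by type, and each column 1 array (1 mouse); colour is the log2 level minus the mean of that gene over the 6 arrays, with the scale ending at 4 in both directions and dim signals raised to the lowest signal called above background on that array. Dots mark arrays on which the gene was not well above background. Dark red cells in the wild-type columns of 10 and 50 weeks include those of Krt1, Krt5, Krt6b, Krt17, Cnfn, Crct1, Krtdap and Lor. Most Lce genes are dark red at 50 weeks and paler at 10 weeks, and Sprr2g is dark red on the 5-week null array. Krt2, Krt9, Krt10, Krt13, Lce1a2 and Lce1j are pale, and the simple keratins at the top stay pale except Krt7 and Krt20.

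Over all members, 39 of 70 had their highest level on the 50-week wild-type array, against 9.77% of all genes with signal. The 5-week null array was the highest for 14 members (17.2% of all genes), the 10-week wild-type array for 6 (15.0%), the 50-week null array for 6 (18.1%), the 5-week wild-type array for 4 (27.7%) and the 10-week null array for 1 (12.2%). Of the 39, 17 were Lce genes, 11 stratified keratins and 4 other cornified genes, and 1 was a simple keratin (Krt8). The 70 include the 21 members above background on the 10-week and 50-week wild-type arrays alone, which entered the set through these arrays. On the probes used, Krt4, Krt40 and Lce1l were above background on the 50-week wild-type array alone. The count of 39 thus describes a pattern and supports nothing further.

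The genotype comparison over the 3 ages, in a limma fit with age as a factor, called no gene. In that fit 0.0% of 17858 genes passed an adjusted p of 0.05 as higher in null mice and 0.0% as lower, so 0 of the 42 members tested passed either way. At an unadjusted p under 0.05 the fit held 12 of 42 members, against 23.6% of all genes tested (4215 genes), a share near the background. The age F test of the same fit called 0.0112% of genes (2 genes) and 0 members. Every difference below is therefore a value that did not pass the threshold, and the verbs describe levels on these 6 arrays. Medians were described by type: null minus wild type was 0.21 on the log2 scale for the simple keratins, -1.01 for the stratified keratins and -2.21 for the 34 cornified genes, beside -0.03 for all genes tested. With dim signals raised to the array's lowest signal called above background, the stratified median was -1.01 and the cornified median -1.66. For the 7 stratified keratins above background on all 6 arrays the median was -0.10. Many of the larger values thus come with members that were dim on some arrays. Krt5 (-3.0), Krt16 (-1.01) and Lor (-3.52) were above background on all 6 arrays and are not of this kind.

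At single ages 1 null mouse stood against 1 wild-type mouse, with no replicate check. At 5 weeks the null array was at least 2-fold higher for 9 of 40 members above background on either array (4.68% of all genes) and at least 2-fold lower for 1, Krt6b (5.95% of all genes). At 10 weeks it was higher for 3 of 65 members (5.15% of all genes) and lower for 27 (6.52% of all genes); with normexp background correction these counts were 1 and 14. Of the 27, 19 were above background on the 10-week and 50-week wild-type arrays alone and so could not have been lower in wild type. At 50 weeks it was higher for 1 of 68, Ivl (2.38% of all genes), and lower for 34 (5.56% of all genes), of which 21 had that same pattern. Krt4, Krt40 and Lce1l, also among the 34, were above background on the 50-week wild-type array alone and could not have been lower in wild type either. The 34 were 16 of 18 Lce genes, 9 of 15 stratified keratins, 4 of 5 other cornified genes, 4 of 10 Sprr genes and 1 hair keratin, with 0 of 5 simple keratins.

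**Figure D2:**
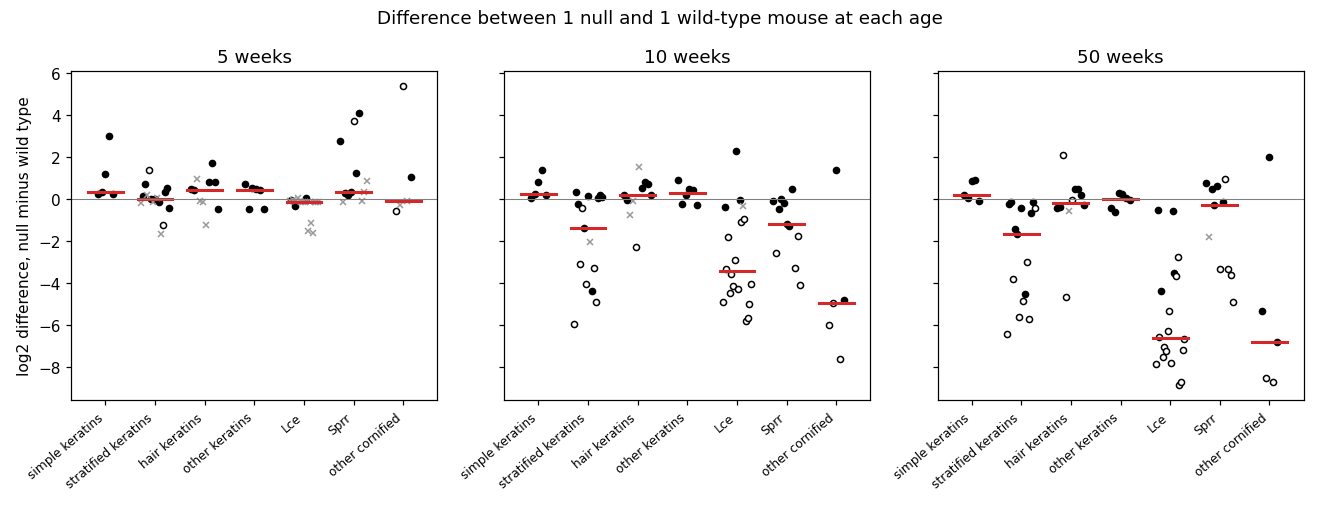
Log2 difference, null minus wild type, of each member at 5, 10 and 50 weeks by type, with filled circles where both arrays were above background, open circles where 1 was, grey crosses where neither was, and red bars at the median of the type. The Lce median was -0.13 at 5 weeks, -3.45 at 10 and -6.61 at 50 weeks, or -0.09, -1.51 and -4.51 with dim signals raised to the lowest signal called above background, while the simple keratin median was 0.35, 0.24 and 0.20.

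Among the simple keratins, the main filament pair of the gland cells differed little between the arrays on the brightest probes. Krt8, the type II partner, stood at 46197, 46321 and 58943 in wild-type mice of 5, 10 and 50 weeks and at 53849, 53641 and 55938 in null mice. Krt18, its type I partner, stood at 30987, 33312 and 33400 in wild-type and 37101, 34403 and 38335 in null mice. A second, dimmer Krt8 probe stood at 7164, 10042 and 10656 in wild-type and 10839, 10074 and 10959 in null mice, 1.51-fold apart at 5 weeks. For Krt8 the genotypes overlapped on both probes, and for Krt18 every null array lay above every wild-type array by a small margin. The log2 differences were 0.12 ± 0.13 for Krt8 and 0.17 ± 0.12 for Krt18 (SE, n = 3 per genotype; limma adjusted p = 0.592 and 0.420).

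Krt19, a type I keratin that pairs with Krt8 in ductal and isthmus cells, stood at 22682, 24679 and 31356 in wild-type and 28958, 29220 and 32246 in null mice, with overlap between the genotypes. Its difference of 0.21 ± 0.13 (SE, n = 3; limma adjusted p = 0.356) became -0.01 with quantile normalization.

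Krt20 and Krt7 were the simple keratins whose genotypes lay more than 1.5-fold apart at every age. Krt20, a type I keratin of differentiated surface cells of the gut, stood at 4399, 5842 and 7904 in wild-type mice and at 9929, 10071 and 14290 in null mice. It was higher with age in wild type at each step, and each null array lay above the wild-type array of its age by 1.72-fold to 2.26-fold. The mean difference was 0.94 ± 0.14 (SE, n = 3), or 1.92-fold, with a limma adjusted p of 0.126. With normexp background correction the adjusted p was 0.0405 in limma and the difference 0.95.

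Krt7, a type II keratin of ductal and other simple epithelia, stood at 247, 719 and 907 in wild-type mice and at 1950, 1885 and 1700 in null mice. Wild-type levels were higher at each later age and null levels lower, so that the gap was 7.90-fold at 5 weeks, 2.62-fold at 10 weeks and 1.87-fold at 50 weeks. The mean difference was 1.76 ± 0.45 (SE, n = 3), or 3.39-fold, with a limma adjusted p of 0.165. Other genes of simple epithelia were examined beside them: 0 of 10 passed the limma threshold, and Cldn7, a tight junction protein, came nearest with 1.98 ± 0.16 (SE, n = 3; limma adjusted p = 0.0967). Of this list 2 of 10 had every null array above every wild-type array and 1 of 10 the opposite, against 11.7% and 11.4% of all genes with signal.

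**Figure D3:**
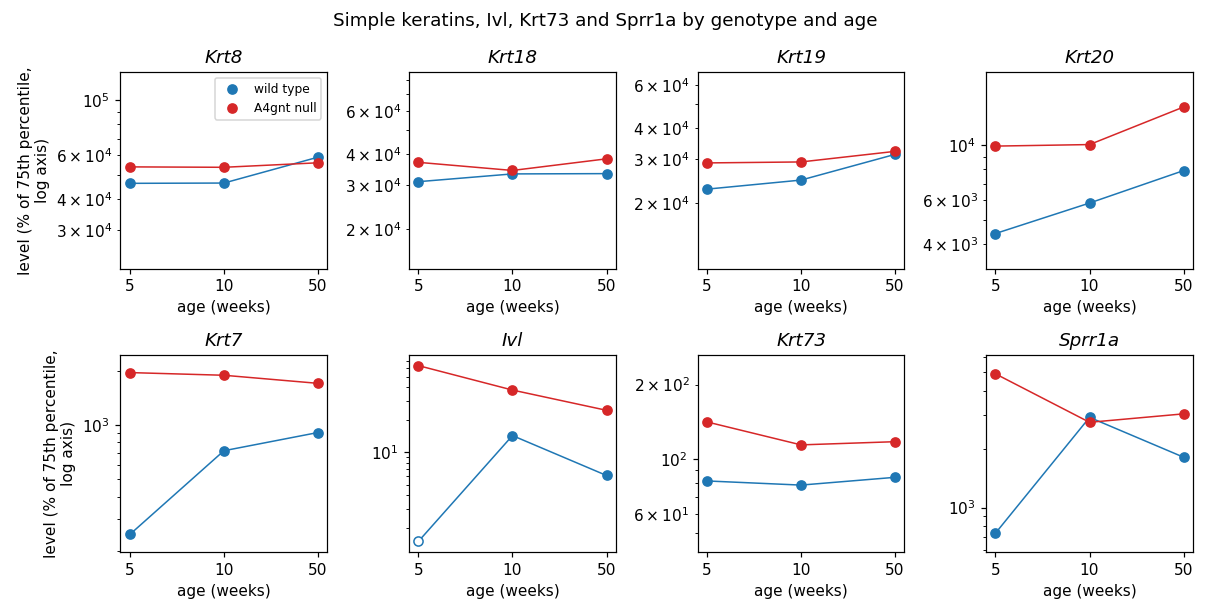
Level on each array (percent of the 75th percentile of that array, log axis) against age for the 5 simple keratins and for Ivl, Krt73 and Sprr1a, with blue for wild type and red for A4gnt null, 1 mouse per point; an open point is not well above background. The 2 lines run close together for Krt8, Krt18 and Krt19, stay apart at every age for Krt20, Krt7, Krt73 and Ivl, and cross for Sprr1a.

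The basal keratins Krt5 and Krt14 of stratified epithelium were low on 4 arrays and high on 2, while Krt15 was not. Krt5, the type II basal keratin, stood at 7.17, 132 and 211 in wild-type mice of 5, 10 and 50 weeks and at 6.58, 6.31 and 9.30 in null mice, all above background. At 5 weeks the genotypes were 1.09-fold apart, at 10 weeks 20.9-fold and at 50 weeks 22.7-fold. The mean difference was -3.00 ± 1.01 (SE, n = 3; limma adjusted p = 0.197), and -1.84 with normexp background correction. Without the 5-week pair it was -4.45 (limma adjusted p = 0.102), and without the 5-week wild-type array and with no age term -4.52 (limma adjusted p = 0.0447). That array was the wild-type array with the lowest level, so leaving it out had to widen the difference.

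Krt14, the type I partner of Krt5, stood at 21.5 and 27.1 on the 10-week and 50-week wild-type arrays and was not well above background on the other 4. In null mice it was lower by at least 6.05-fold (10 weeks) and at least 10.8-fold (50 weeks). Krt15, a further basal type I keratin, stood at 5.31 and 16.0 on those wild-type arrays and at 6.01 and 5.88 on the 5-week and 50-week null arrays, and was not well above background on the other 2. The genotypes thus overlapped for Krt15, with a difference of -0.17 ± 0.58 (SE, n = 3; limma adjusted p = 0.872). The transcription factor Trp63, which specifies basal squamous cells, did not follow this pattern: its probe was above background on all 6 arrays. It stood at 568.7 to 778.8 in wild-type mice, highest at 5 weeks, and at 480.6 to 558.0 in null mice. Every null array lay below every wild-type array, with a difference of -0.33 ± 0.12 (SE, n = 3, limma adjusted p = 0.209).

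The keratins of stressed or fast-renewing squamous cells followed Krt5. Krt6b, a type II keratin of this kind, stood at 8.99, 81.1 and 156 in wild-type mice and was not well above background in any null mouse, at least 13.6-fold lower over the 3 ages. The fit on signals below background gave an adjusted p of 0.161 in limma, and its difference is not a measured size since every null signal is only a bound. Krt17 stood at 39.4 and 59.3 on the 10-week and 50-week wild-type arrays and was not well above background on the other 4. Krt6a had the same arrays at 7.92 and 8.90. Krt16, the usual type I partner of Krt6, differed less: it stood at 87.9, 153 and 148 in wild-type and 87.4, 59.3 and 47.3 in null mice, so that at 5 weeks the genotypes were level (1.01-fold) and at 50 weeks 3.13-fold apart. Over the ages its difference was -1.01 ± 0.37 (SE, n = 3; limma adjusted p = 0.212).

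The suprabasal keratins depended on the probe. Krt1, the type II keratin of cornifying layers, stood at 54.9 and 95.2 on the 10-week and 50-week wild-type arrays and was not well above background on the other 4. In null mice it was lower by at least 15.5-fold (10 weeks) and at least 38.0-fold (50 weeks). Krt10, its type I partner, had 2 probes that disagreed. The brighter probe stood at 199, 213 and 320 in wild-type and 218, 267 and 267 in null mice, while the other stood at 26.6, 99.8 and 102 in wild-type and 43.3, 33.6 and 30.8 in null mice, so that only the second followed Krt1. Krt13, the mucosal type I keratin, had the same split: the brighter probe stood at 148, 249 and 235 in wild-type and 241, 209 and 213 in null mice. The other Krt13 probe was not well above background in the wild-type mouse of 5 weeks, stood at 34.3 and 114 at 10 and 50 weeks, and stood at 7.23, 5.13 and 8.61 in null mice. The brighter probe entered the fit, as for every gene, with differences of 0.07 ± 0.16 for Krt10 and 0.10 ± 0.24 for Krt13 (SE, n = 3; limma adjusted p = 0.820 and 0.814).

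Krt4, the mucosal type II partner of Krt13, was above background on 1 array, the 50-week wild-type array, at 18.8. Krt78, a type II keratin of stratified mucosa, stood at 77.7, 129 and 225 in wild-type and 98.5, 131 and 141 in null mice, and Krt79 at 451, 480 and 816 in wild-type and 640, 544 and 731 in null mice. Both were thus highest on the 50-week wild-type array but overlapped between the genotypes. Krt2 and Krt9, epidermal keratins, lay within 0.89 and 1.09 log2 units over the 6 arrays. Their differences were -0.11 ± 0.16 and -0.25 ± 0.16 (SE, n = 3, limma adjusted p = 0.713 and 0.378). A second Krt2 probe was not well above background on any array.

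Cnfn and Lor, structural envelope proteins, spanned a wide range over the arrays. Cnfn (cornifelin), an envelope component, stood at 5.83, 98.0 and 227 in wild-type mice and at 5.62 in the null mouse of 50 weeks, and was not well above background in the other 2 null mice. Lor, the main structural protein of the epidermal envelope, stood at 8.78, 346 and 942 in wild-type mice and at 18.1, 12.5 and 8.34 in null mice. Lor was 2.06-fold higher in the null mouse at 5 weeks, 27.6-fold lower at 10 weeks and 113-fold lower at 50 weeks, and whether the ages differ was not tested. Over the ages the differences were -3.96 ± 1.20 for Cnfn and -3.52 ± 1.65 for Lor (SE, n = 3; limma adjusted p = 0.181 and 0.276).

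Krtdap, a secreted keratinocyte peptide, stood at 147 and 219 on the 10-week and 50-week wild-type arrays and was not well above background on the other 4. In null mice it was lower by at least 41.3-fold (10 weeks) and at least 87.2-fold (50 weeks). Crct1, a small cysteine-rich protein encoded beside the Lce genes, stood at 42.1 and 217 on the same 2 arrays. These 2 genes shared their arrays but not their course: Krtdap was 1.49-fold and Crct1 5.16-fold higher at 50 than at 10 weeks.

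Involucrin ran the other way. Ivl, an early envelope scaffold protein, was not well above background in the wild-type mouse of 5 weeks, stood at 14.3 and 6.11 in those of 10 and 50 weeks, and stood at 63.0, 37.5 and 24.4 in null mice. Every null array lay above every wild-type array, by at least 14.1-fold at 5 weeks, 2.63-fold at 10 weeks and 3.99-fold at 50 weeks. The difference was 2.92 ± 0.87 (SE, n = 3), or 7.59-fold, with a limma adjusted p of 0.179. It includes the 5-week wild-type signal, which was not well above background, so it is not a measured size. Ivl was 1 of 9 members with this order, against 11.7% of all genes with signal, beside Krt7, Krt18, Krt20, Krt23, Krt24, Krt73, Krt81 and Krt85, and it was the only cornified gene among them. In 21 members every null array lay below every wild-type array, against 11.4% of all genes, but for 16 of the 21 the 5-week wild-type signal was itself not above background, so the order there ranks signals that have none.

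The Sprr genes, which encode cross-bridging envelope proteins also made in simple epithelia under stress, did not share 1 pattern. Sprr1a stood at 737, 2926 and 1820 in wild-type mice and at 4911, 2758 and 3050 in null mice. It was 6.66-fold higher in the null mouse at 5 weeks, level at 10 weeks (1.06-fold) and 1.68-fold higher at 50 weeks, with a difference of 1.13 ± 0.59 (SE, n = 3; limma adjusted p = 0.312). Sprr2g stood at 8.11 and 22.2 in wild-type mice of 5 and 10 weeks, was not well above background at 50 weeks, and stood at 138, 30.8 and 5.14 in null mice. Its null level was thus 17.0-fold above wild type at 5 weeks and 1.38-fold at 10 weeks, with a mean difference of 1.83 ± 0.80 (SE, n = 3; limma adjusted p = 0.254).

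Sprr2d and Sprr2f lay on opposite sides of wild type at different ages. Sprr2d was not well above background in the wild-type mouse of 5 weeks, stood at 19.4 and 23.8 at 10 and 50 weeks, and in null mice stood at 16.1 and 8.57 at 5 and 10 weeks and was not well above background at 50 weeks. Sprr2f stood at 108, 230 and 77.7 in wild-type and 256, 93.4 and 70.6 in null mice. In both the null mouse was higher at 5 weeks and lower at 10 weeks, and the means over the ages nearly cancelled, at -0.26 ± 1.45 for Sprr2d and -0.06 ± 0.52 for Sprr2f (SE, n = 3; limma adjusted p = 0.925 and 0.948). Of the 9 members at least 2-fold higher in the null mouse at 5 weeks, 4 were Sprr genes (Sprr1a, Sprr2d, Sprr2f and Sprr2g).

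The genotypes overlapped for the other Sprr2 genes above background on all 6 arrays. Sprr2a2 stood at 98794 to 130460, Sprr2b at 33.9 to 59.1 and Sprr2a at 9.44 to 25.4. Sprr2 genes are close copies of each other, so a probe may take up transcripts of a neighbour, and this was not tested. Sprr3, Sprr2i and Sprr2j-ps were above background on the 10-week and 50-week wild-type arrays alone, with Sprr3 at 13.4 and 29.5, and Sprr1b on the 10-week wild-type array alone, at 4.69.

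The Lce genes, whose products are added last to the envelope, shared 1 pattern for the most part, with 12 of 18 above background on the 10-week and 50-week wild-type arrays alone. Lce3b stood at 43.2 and 242 on the 10-week and 50-week wild-type arrays and was not well above background on the other 4. Lce3a stood at 40.5 and 233 and Lce3c at 37.2 and 209 on the same 2 arrays. In the null mouse of 50 weeks Lce3b was lower by at least 96.5-fold, Lce3a by at least 92.8-fold and Lce3c by at least 83.4-fold. Of the Lce1 genes, Lce1a1 stood at 21.7 and 117, Lce1i at 15.7 and 123, Lce1d at 16.9 and 96.4, and Lce1b at 8.73 and 54.9 on these arrays, again with no signal well above background on the other 4.

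The other 6 Lce genes departed from this. Lce1c stood at 6.18, 11.6 and 59.4 in wild-type mice and at 4.89 and 2.91 in null mice of 5 and 50 weeks, and Lce1k at 6.23 and 33.6 in wild-type mice of 10 and 50 weeks and at 2.94 in the null mouse of 50 weeks. Their differences were -2.16 ± 0.82 and -2.03 ± 0.53 (SE, n = 3; limma adjusted p = 0.221 and 0.166). A second Lce1c probe followed the family, at 8.92 and 62.9 on the 10-week and 50-week wild-type arrays and not well above background on the other 4. Lce1l was above background on the 50-week wild-type array alone, at 8.58. Lce1j, at 52.1 to 76.4, and the brighter probe of Lce1a2, at 270 to 396, were nearly level on all 6 arrays. The other Lce1a2 probe stood at 60.6, 93.7 and 261 in wild-type and 53.5, 52.8 and 47.8 in null mice, and so followed the rest of the family.

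Lce1h was the exception among the Lce genes in the null mice. It stood at 4.37 and 36.3 on the 10-week and 50-week wild-type arrays and at 21.3 on the 10-week null array, where 15 of the 18 Lce genes had no signal well above background. Its probe, on chromosome 3, is shown beside a probe for Lce1i because they share 56 of 60 bases, with the differing bases of the first 30 in capitals.
Lce1h: aagacttcaAacaaatGgtgcaggaggagc
Lce1i: aagacttcaGacaaatAgtgcaggaggagc

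This Lce1i probe stood at 4.90 and 39.8 on the 10-week and 50-week wild-type arrays. On the 10-week null array neither it nor the brighter Lce1i probe was well above background, so the Lce1h signal there was not seen on its closest relative. The difference of Lce1h over the ages was -1.05 ± 1.57 (SE, n = 3; limma adjusted p = 0.705), and without the pair of 50 weeks it was 1.08.

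Within wild-type mice, most Lce genes were several-fold higher at 50 than at 10 weeks. Of 61 members above background on both arrays, 21 were at least 2-fold higher at 50 weeks, against 2.55% of 17153 genes, and 15 at least 4-fold, against 0.297%. Lce genes made up 15 of the 21 and 14 of the 15, and Crct1 was the remaining 1 of the 15. Some Lce probes are much alike, with 54 of 60 bases shared by those of Lce3b and Lce3c. A probe may therefore take up transcripts of a neighbour, and this was not tested. Among members above background on these 2 arrays alone, the median ratio was 5.73 for 12 Lce genes (2.20 to 7.90) and 1.38 for 4 stratified keratins (1.12 to 1.74), beside 1.33 for all genes of that pattern. Of the basal keratins, Krt14 was 1.26-fold, Krt5 1.61-fold and Krt15 3.01-fold higher at 50 weeks. Krt1 was 1.74-fold and Lor 2.72-fold higher. Each ratio sets 1 mouse against 1 mouse, and whether the types differ was not tested.

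**Figure D4:**
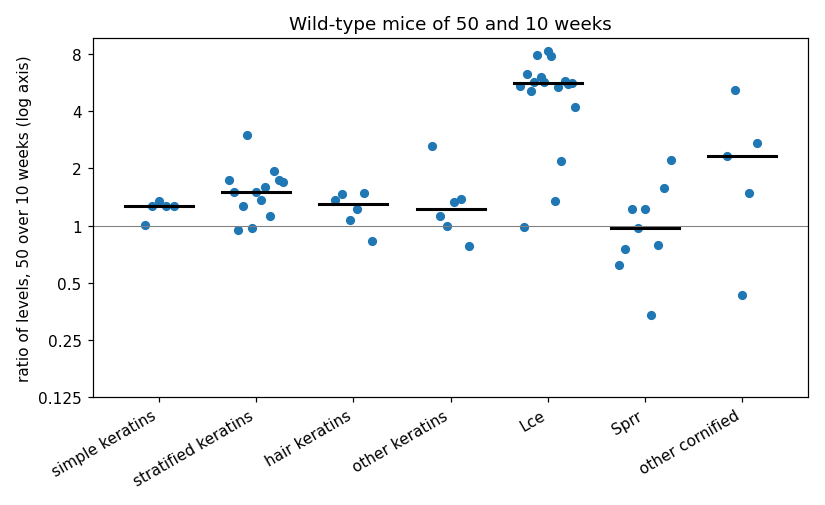
Ratio of the level at 50 weeks to that at 10 weeks in wild-type mice (log axis), for members above background on both arrays, 1 point per gene by type, with the median as a bar. The Lce median is 5.62, those of simple, stratified, hair and other keratins lie between 1.23 and 1.51, that of the other cornified genes is 2.31, and that of the Sprr genes is 0.97.

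Hair and root-sheath keratins, the filament proteins of the hair shaft and its sheath, were mostly dim: 13 of 23 had no signal and 6 of the 10 others were above background on all 6 arrays. Krt81 stood at 90.3, 163 and 200 in wild-type and 297, 288 and 283 in null mice, and Krt85 at 1214, 1193 and 1772 in wild-type and 2110, 1960 and 2043 in null mice. Krt73, an inner root-sheath keratin, stood at 81.5, 78.4 and 84.3 in wild-type and 141, 114 and 117 in null mice. All 3 were higher on every null array, with differences of 1.01 ± 0.28, 0.57 ± 0.17 and 0.60 ± 0.13 (SE, n = 3; limma adjusted p = 0.170, 0.177 and 0.145). Of 7 skin and hair markers examined, such as keratin-associated proteins and trichohyalin, 1 (Tyr) was above background.

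The probes of Krt81 and Krt85 are shown because they share 51 of 57 aligned bases, with the differing bases of a 30-base stretch in capitals.
Krt81: gtGatgaactccaagctggGGctggacGtT
Krt85: gtAatgaactccaagctggCActggacAtC

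Per the array's annotation (mm9), the Krt81 probe lies at chr15:101290583-101290642 on the minus strand and the Krt85 probe at chr15:101307819-101307878 on the plus strand. A second Krt85 probe, at chr15:101346117-101346176 on the minus strand, went the other way, with 34.8, 35.9 and 33.1 in wild-type and 25.6, 25.3 and 19.4 in null mice. The third Krt85 probe was above background on 2 null arrays alone. Which transcript the brightest Krt85 probe reports was not tested, so the Krt81 and Krt85 values are uncertain as values of those genes.

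The remaining hair keratins showed no common order. Krt31 lay at 19.8 to 33.5, Krt32 at 7.13 to 13.5 and Krt86 at 6.05 to 11.6, with overlap between the genotypes. Krt72 was above background on the 50-week null array alone, at 2.73, and Krt71 on the 10-week wild-type array alone, at 3.72. The brightest Krt36 probe was above background on the 50-week null array, at 5.99, and another on the 10-week null array, at 25.4. Krt40 likewise had 1 probe above background on the 50-week wild-type array, at 12.7, and another on the 10-week wild-type array, at 3.88. Each of these probes gave a signal on a single array.

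Other keratins were above background on all 6 arrays. Krt23, a type I keratin of simple epithelia, lay at 3470 to 3968 in wild-type and 4459 to 4959 in null mice, a difference of 0.32 ± 0.13 (SE, n = 3; limma adjusted p = 0.234). Krt12, the corneal type I keratin, stood at 7.70, 14.4 and 37.6 in wild-type and 12.8, 26.5 and 28.3 in null mice, and was higher at each later age in both genotypes. Its age F test had a limma adjusted p of 0.353. Krt24 was higher on every null array by 0.40 ± 0.12, and Krt222 was lower in the null mouse of each age, by a mean of -0.45 ± 0.14 (SE, n = 3; limma adjusted p = 0.181 and 0.179). Krt42 and Krt80 had differences of 0.30 ± 0.14 and -0.26 ± 0.14 (SE, n = 3; limma adjusted p = 0.282 and 0.309).

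Genes that work with the squamous keratins but were not among the members were examined as a list. Of 26 squamous genes, 21 were above background on at least 1 array, 16 were tested and 0 passed the limma threshold. Of the 21, 12 were highest on the 50-week wild-type array, against 9.77% of all genes with signal. Rptn, 1 of these 12, was above background on that array alone and so had to be highest there. Calml3 and Calm4, calmodulin-like proteins of differentiating keratinocytes, stood at 25.8 and 8.08 at 10 weeks and 47.7 and 47.6 at 50 weeks in wild type, and were not well above background on the other 4 arrays. Dsg3, Dsc3, Dsg1a and Dsg1b, the desmosomal cadherins of squamous cells, and Rhcg gave no array a signal well above background. The summed level of the list was 4171 to 7712 on the wild-type arrays and 6550 to 10741 on the null arrays, a sum carried by a few bright probes such as Ly6d. By gene, 7 of 21 had every null array below every wild-type array and 2 of 21 the opposite, against 11.4% and 11.7% of all genes with signal. For some of them, such as Calm4, Rptn and Pax9, the order ranks signals that were mostly not above background.

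Single genes of this list went both ways. Cdsn, the corneodesmosome protein, stood at 24.4, 36.1 and 45.2 in wild-type and 14.8, 12.6 and 7.40 in null mice, a difference of -1.62 ± 0.40 (SE, n = 3, limma adjusted p = 0.161). Serpinb5 (maspin) stood at 355, 470 and 579 in wild-type and 942, 926 and 1155 in null mice, a difference of 1.13 ± 0.15 (SE, n = 3; limma adjusted p = 0.110). Of 11 genes of the desmosomes and hemidesmosomes that anchor keratins in all epithelia, 0 of 11 passed; the hemidesmosome integrins Itgb4 and Itga6 differed by 0.56 ± 0.11 and 0.51 ± 0.12 and the plakin Dst by -0.78 ± 0.15 (SE, n = 3; limma adjusted p = 0.144, 0.153 and 0.139).

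Markers of other tissues also differed between arrays. Of 8 liver genes, 7 were highest on the 10-week wild-type array, with a summed level of 8510 there and 893 to 3019 on the other 5 arrays. Of 7 smooth muscle genes, 6 were highest on the 50-week wild-type array, with sums of 1371, 4533 and 7113 in wild-type and 4624, 6032 and 1951 in null mice. Of 9 pancreatic genes, 8 were highest on the 5-week wild-type array, with sums of 1410 to 47880 over the arrays. Of all genes with signal, 15.0% were highest on the 10-week, 9.77% on the 50-week and 27.7% on the 5-week wild-type array. Within wild type the smooth muscle sum was higher at each later age, as were Krt5 and Lor. On the null arrays that sum was highest at 10 weeks, and Krt5 and Lor were not. Such sums are carried by the brightest probes. The part of these tissues in the keratin and cornified envelope results was not tested.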

How the data were processed

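Intensity values of the spots come from Agilent Feature Extraction 10.7.1.1, run by the authors, per the file headers; its processed signal has the background subtracted. Other columns of the deposited files are flags for outlier, saturated and well-above-background spots. A second set of deposited values is on the log2 scale and equals the log2 processed signal plus a constant of each array, within 0.001 for 100% of 39399 probes; it served as an alternative only. RNeasy-purified RNA was labelled with Cy3, per the labels.

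The log2 processed signal minus the 75th percentile of the array was used. Outlier spots (98 to 144 per array) were dropped, 0 were saturated, and the brightest probe stood for each gene. Genes above background on at least 3 arrays (17858) were fitted on genotype and age by limma 3.58.1 under R 4.3.3 (2 residual and 2.12 prior degrees of freedom), with Benjamini-Hochberg adjustment; the fit was tested on simulated data. Bounds use the lowest signal called above background. Values were given for all simple keratins and for other members above background on at least 3 arrays, by range; Krt10, Krt42, Krt80, Lce1a2, Lce1j, Krt23 and Sprr2a2 were added after their values were seen. The members and gene lists were chosen with earlier results of these data known, and the hair and other keratin types after the files were read. No genome of the array's build was used here.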

Additional observations from a re-analysis of the deposited data

Results flagged for a closer look

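In 4 genes the null array lay on opposite sides of the wild-type array at different ages; each value sets 1 mouse against 1 mouse, and the differences between ages were not tested. Lor, in null minus wild type on the log2 scale, was 1.04 at 5 weeks, -4.79 at 10 weeks and -6.82 at 50 weeks. Sprr2d was 3.72, -1.18 and -3.32 at these ages. Sprr2f was 1.24 at 5 weeks and -1.30 at 10 weeks. Lce1h was 2.28 at 10 weeks and -5.32 at 50 weeks. Its 50-week null signal was not well above background, with a bound of at least 14.5-fold lower.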

How the results depend on the processing

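Over 19 named members and 335 comparisons with an alternative, 329 kept direction and side of the limma threshold, 3 passed it and 3 changed direction. Krt20 passed with normexp background correction (0.95, limma adjusted p = 0.0405), and Krt5 and Krt6b passed when the 5-week wild-type array and the age term were both left out (limma adjusted p = 0.0447), but not without the 5-week pair with the age term kept (0.102). Krt19 became -0.0081 with quantile normalization, and Lce1h, which ranged from -2.72 to 1.08 in the leave-one-out fits, was above 0 without the pair of 50 weeks (1.08) and without the 50-week wild-type array (0.30). Genes called for genotype, 0 in the chosen fit, were 1 with quantile normalization, 189 with normexp (97 higher, 92 lower), 6 with no age term, 41 with a variance trend and 0 to 9 when 1 array or age pair was left out; members called were 1 with normexp and 0 to 2 in the leave-one-out fits. Genes called for age, 2 in the chosen fit, were 8 with normexp, 0 with no filter, 0 with all 6 arrays required, 5 with a variance trend and 0 without any 1 array. The cause of these changes was not tested. The simple keratin median of 0.21 was 0.34 with median scaling, which moved the median of all genes to 0.10, and 0.13 to 0.35 in the leave-one-out fits. The stratified median of -1.01 was -0.10 with all 6 arrays required, which leaves 7 genes. With normexp, members with a null array lower by at least 2-fold were 0 at 5 weeks and 14 at 10 weeks, and those higher were 1 at 10 weeks and 0 at 50 weeks; with median scaling, 3 were higher at 50 weeks. The age term is the pairing by replicate number. Signal near background limits the dim members.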
